A study of Homo sapiens with 12 samples.

Results

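Sialyltransferases are the Golgi enzymes that move sialic acid from its activated form, CMP-sialic acid, onto the ends of glycans. The data give RNA levels of ST8SIA6 and 9 further genes of this family: ST8SIA4, ST3GAL1, ST3GAL2, ST3GAL3, ST3GAL4, ST3GAL5, ST6GAL1, ST6GALNAC1 and ST6GALNAC4. These 10 genes were chosen by symbol among the 28278 genes of the count table, and ST8SIA6 was picked because of its large rise in CCL218. Its values in CCL218 are therefore given as a description, without a test. The other 10 human sialyltransferases in the table were read as a comparison.

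The family is divided by the bond it makes and by its acceptor. ST3GAL enzymes cap terminal galactose on O-glycans, N-glycans and glycolipids. ST6GAL1 makes the other common cap on N-glycan galactose. Some ST6GALNAC enzymes act on the GalNAc that begins mucin-type O-glycans, whereas ST6GALNAC6 acts on gangliosides and Lewis antigens. ST8SIA enzymes add sialic acid to a sialic acid that is already there. Tumor cells are well known for altered sialic acid caps, some of which are ligands of inhibitory Siglec receptors on immune cells.

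Bulk polyA RNA was sequenced from cells labelled OVCAR3 (ovarian cancer line) and CCL218 (colorectal cancer line). HCQ-evolved cells went through 15 pulses of hydroxychloroquine, an inhibitor of autophagy, of 48 h each. They were sequenced at passage 15. Control cells were passaged without the drug and sequenced at passage 19, and both kinds grew for 7 days without drug before collection. Wells of a 96-well plate were combined by position into a left (L), a middle (M) and a right (R) pool, so that each of the 4 groups had 3 pools, for 12 libraries. Each group came from 1 plate, and p-values measure only the spread between pools of a plate. Drug, plate and passage number differ together between control and HCQ-evolved cells and cannot be told apart.

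Libraries held 31147822 to 59965861 counts. The cell line labels were checked with 9 ovarian and 9 colorectal marker genes, and the markers did not separate the labels. At 1 CPM or more in every pool of a group there were 5 ovarian markers in each of the 4 groups and 5 or 6 colorectal markers. The ovarian markers summed to 281 to 841 CPM (counts per 1000000, TMM-normalized) and the colorectal markers to 219 to 1650 CPM over the 12 libraries. SOX17, EMX2, ESR1 and KRT20 were at or near 0 in all libraries. A gene at 5 CPM or more throughout one label and at 1 CPM or less throughout the other was not found. OVCAR3 and CCL218 are used here as the labels of the libraries.

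ST6GAL1 was the member with 0 to 2 counts per HCQ-evolved library in both lines, against 36 to 72 in control libraries, and its promoter is shown for that reason. The RefSeq window is listed as 250 bases before to 50 bases after the start, at chr3:186930276-186930575 on the plus strand of GRCh38.p14. Capitals mark matches to the GC box GGGCGG on either strand. The GENCODE annotation puts the start of ST6GAL1 at 186930325, near the left end of this window. By that start, most of the window and the marked GC boxes lie after the start. Which start these cells use was not tested.

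ST6GAL1 promoter: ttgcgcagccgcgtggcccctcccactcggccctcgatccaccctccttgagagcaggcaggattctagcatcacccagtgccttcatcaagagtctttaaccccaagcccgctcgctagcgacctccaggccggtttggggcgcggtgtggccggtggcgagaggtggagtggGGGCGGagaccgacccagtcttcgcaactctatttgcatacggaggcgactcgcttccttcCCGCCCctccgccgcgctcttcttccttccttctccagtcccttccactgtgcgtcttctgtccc

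The window held 2 GC boxes, as its letters or their reverse complement CCGCCC, and 44.9% of 34796 RefSeq promoter windows of the same length held at least 1. It held no CCAAT (34.6% of windows), TATAAA (11.6%), CACGTG (7.20%), ACGTG (21.4%, the core of CACGTG included) or TGACTCA (4.96%), each searched on both strands. A match describes letters only. Windows were found for 6 of the 10 members, and ST8SIA6, ST3GAL1, ST3GAL2 and ST6GALNAC1 were without one.

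ST8SIA6 (chromosome 10, 17315421 to 17454595, minus strand, GENCODE 44 on hg38) encodes a sialyltransferase that extends sialylated O-glycans with a further sialic acid. In control CCL218 it was at 0.541 (L), 0.523 (M) and 0.427 CPM (R), from 20 to 24 counts per pool. In HCQ-evolved CCL218 it was at 7.62, 9.36 and 8.43 CPM, from 371 to 513 counts per pool. The 3 HCQ-evolved pools were alike and lay far above the 3 control pools. The means were 8.47 ± 0.867 and 0.497 ± 0.0613 CPM (SD, n = 3), and the log2 fold change was 4.08 (edgeR, standard error 0.21), or 17-fold. This is the value for which the gene was chosen.

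In OVCAR3, which the choice did not use, ST8SIA6 was sparse. Its counts in control pools were 6 (L), 0 (M) and 4 (R), whereas the HCQ-evolved pools gave 20, 20 and 6. The levels were 0.0763 ± 0.0775 CPM in control and 0.279 ± 0.155 CPM in HCQ-evolved pools (SD, n = 3). The right HCQ-evolved pool (0.101 CPM) lay under the left control pool (0.155 CPM), so the groups overlapped. Over the summed counts, 10 in control and 46 in HCQ-evolved pools, the normalized ratio was 3.4 (95% interval 1.69 to 7.55, exact binomial, counting error only). The interval takes each count as independent and is too narrow if both reads of a pair were counted. An exact permutation test over pools gave p = 0.2 (two-sided, n = 3), where 0.1 is the smallest that 3 against 3 allows. Without a filter on low counts edgeR put the change at 1.85 on the log2 scale (standard error 0.92), with an adjusted p of 0.419. That value was 1.36 without the middle control pool and 2.63 without the left control pool, and the adjusted p stayed at 0.122 or above in each fit that left out a pool.

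Across the 4 groups the order of ST8SIA6 was HCQ-evolved CCL218, control CCL218, HCQ-evolved OVCAR3 and control OVCAR3. Control CCL218 pools lay above every OVCAR3 pool, and the 2 OVCAR3 groups did not differ beyond their spread. The rise on the log2 scale was larger in CCL218 by 2.32 (standard error 0.87), a value that also rests on the choice of the gene.

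**Figure D1:**
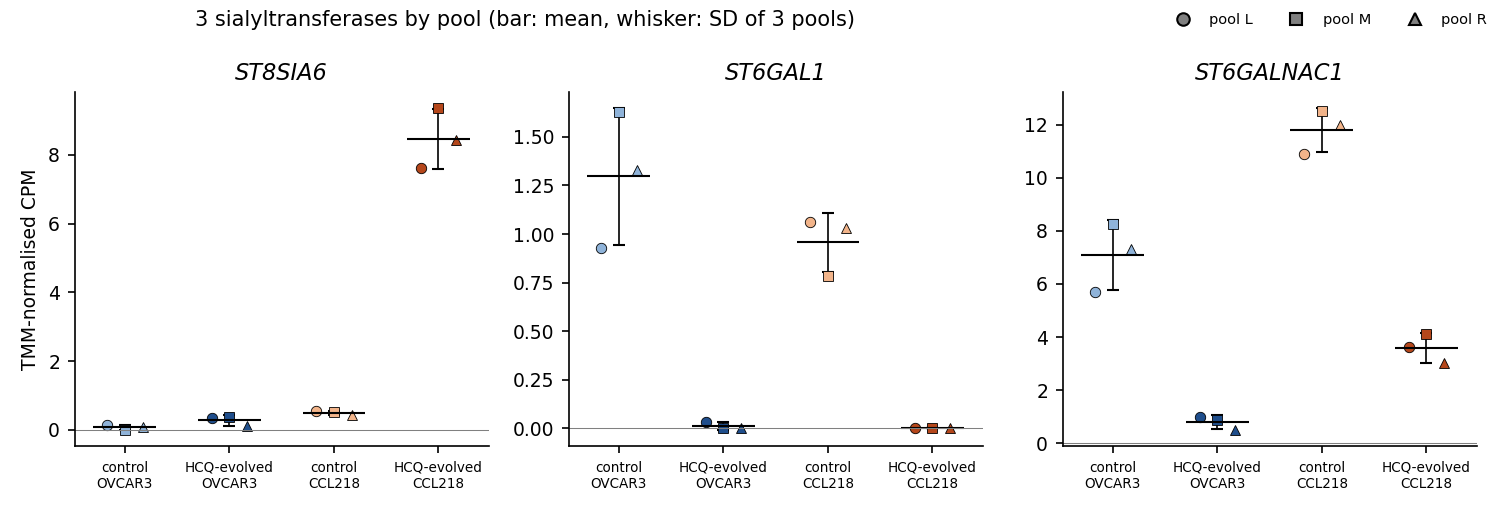
TMM-normalised CPM (y axis, linear, from 0) of ST8SIA6, ST6GAL1 and ST6GALNAC1 in the 4 groups, with a point for each pool (L, M, R), a bar for the mean and whiskers for the SD of 3 pools. ST8SIA6 sits at 7.62 to 9.36 CPM in HCQ-evolved CCL218 and at 0.541 CPM or less elsewhere, while ST6GAL1 and ST6GALNAC1 sit lower in HCQ-evolved than in control pools of both lines.

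The genes around ST8SIA6 on chromosome 10 were not called in either line. The antisense gene ST8SIA6-AS1 overlaps the ST8SIA6 locus by 58840 bases but shares 0 exon bases with it, and it held 1 to 6 counts per library in HCQ-evolved CCL218 and 0 to 2 elsewhere. Of 13 genes from 67.7 to 1020 kb away by transcription start (ST8SIA6-AS1 included), 6 passed the filter on low counts in each line, and edgeR called 0 in either line. Over all genes tested, edgeR called 1.86% in OVCAR3 and 6.46% in CCL218. At an unadjusted p under 0.05 there was 1 neighbour in each line. The share of all genes at that level is not given, here or below, so such counts have no background beside them. DESeq2 called 1 neighbour in OVCAR3 and 0 in CCL218, against 1105 of 12204 and 2172 of 12241 genes. HACD1, 163 kb away and encoding an enzyme of very long chain fatty acid elongation, was at 13.4 ± 1.13 CPM in control and 18.0 ± 2.28 CPM in HCQ-evolved CCL218 (log2 fold change 0.42, adjusted p = 0.135). In OVCAR3 it was at 17 ± 3.0 and 30.1 ± 3.77 CPM (0.84, adjusted p = 0.088; called by DESeq2). RSU1, a suppressor of Ras signaling, had log2 fold changes of -0.25 in OVCAR3 (adjusted p = 0.668) and -0.44 in CCL218 (adjusted p = 0.216). VIM, whose start is 226 kb from that of ST8SIA6, held 0 to 35 counts per library and was not tested.

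**Figure D2:**
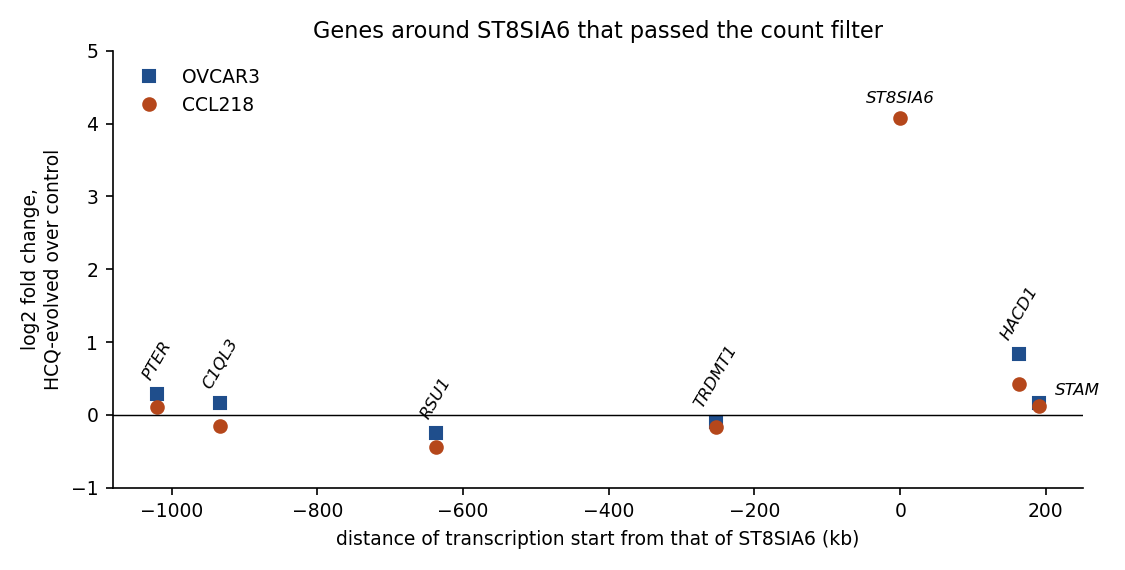
Log2 fold change of HCQ-evolved over control pools (y axis, edgeR) against distance of the transcription start from that of ST8SIA6 in kb (x axis) for genes that passed the count filter, with squares for OVCAR3 and circles for CCL218. ST8SIA6 is at 4.08 in CCL218 and the neighbours lie between -0.44 and 0.84.

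The genes whose log2 CPM followed ST8SIA6 most closely over the 12 libraries were MYH14, a nonmuscle myosin heavy chain (Pearson's r = 0.966), PPP1R3G, a glycogen-targeting phosphatase subunit (0.951), GPA33, an intestinal surface antigen (0.944), FADD, a death receptor adaptor (0.941), and PAAF1, a proteasome assembly factor (0.939). These libraries share line and treatment, and the 3 HCQ-evolved CCL218 pools stand apart. Over the other 9 libraries the values were 0.834, 0.909, 0.67, 0.739 and 0.67. The genes were picked over all 12 libraries, so these values are not a separate check, and ST8SIA6 held 0 to 24 counts in the 9. PPP1R3G was at 1.86 ± 0.445 CPM in HCQ-evolved CCL218 and passed the filter through that group only. Its mean was 0.0887 CPM in control OVCAR3, 0.299 in HCQ-evolved OVCAR3 and 0.32 in control CCL218. MYH14 was at 1660 ± 63.3 CPM in HCQ-evolved CCL218 and 1220 ± 34.9 CPM in its control. GPA33 was at 34.7 ± 2.22 and 4.77 ± 0.834 CPM.

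Seen across members, ST6GALNAC1 was the gene that passed the test in both lines. In OVCAR3, 7 of the 10 members passed the filter (at least 1 CPM in at least 3 libraries), 1 was called lower, 0 were called higher and 6 were not called (edgeR, adjusted p under 0.05), against 1.86% of all 12204 genes tested in either direction, 1.21% lower and 0.647% higher. In CCL218, 8 passed, of which 7 were tested besides ST8SIA6. Of these, 1 was called lower, 0 higher and 6 were not called, against 6.46% of 12241 genes in either direction, 2.64% lower and 3.82% higher. With plate position as a replicate block the count was 1 member in each line, with 0.664% of all genes called in OVCAR3 and 14.2% in CCL218. The median log2 fold change of the members tested was -0.13 in OVCAR3 and 0.01 in CCL218, against 0.02 and -0.02 over all genes. ST8SIA4 and ST6GAL1 passed in neither line, and ST8SIA6 passed in CCL218 only, through its HCQ-evolved pools. ST6GALNAC1 passed the filter in OVCAR3 through its control pools only, since its HCQ-evolved pools held 30 to 58 counts. With no filter on low counts its adjusted p in OVCAR3 was 0.000171 (edgeR).

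ST6GALNAC1 (chromosome 17, 76624761 to 76643786, minus strand) makes sialyl-Tn, a truncated O-glycan known from mucins of carcinomas. Control OVCAR3 pools were at 5.68 (L), 8.27 (M) and 7.30 CPM (R) and HCQ-evolved pools at 1.01, 0.888 and 0.503 CPM. Control CCL218 pools were at 10.9, 12.5 and 12 CPM and HCQ-evolved pools at 3.62, 4.12 and 3.01 CPM. In each line all 3 HCQ-evolved pools lay under all 3 control pools.

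The means of ST6GALNAC1 were 7.08 ± 1.31 and 0.802 ± 0.266 CPM in OVCAR3, and the gene fell by 3.13 on the log2 scale (edgeR, standard error 0.34, adjusted p = 0.0104). In CCL218 they were 11.8 ± 0.803 and 3.58 ± 0.556 CPM, and it fell by 1.72 (standard error 0.17, adjusted p = 0.00294). These are 8.75-fold and 3.30-fold lower levels. The call in OVCAR3 was lost without the left control pool (-3.28, adjusted p = 0.0753) and without the right control pool (-3.10, adjusted p = 0.0754). The locus overlaps the noncoding gene SNHG16 on the other strand but shares 0 exon bases with it.

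ST6GAL1 (chromosome 3, 186930325 to 187078553, plus strand) puts sialic acid on galactose of N-glycans through carbon 6, the cap read by elderberry lectin. Its counts in control OVCAR3 were 36 (L), 52 (M) and 72 (R), and in HCQ-evolved OVCAR3 they were 2, 0 and 0. In CCL218 the counts were 43, 36 and 48 in control pools, and every HCQ-evolved pool had 0. The groups did not overlap in either line.

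Control levels of ST6GAL1 were near the filter at 1.30 ± 0.354 CPM in OVCAR3 and 0.956 ± 0.150 CPM in CCL218 (SD, n = 3), so that the filtered fits of each line left it out. An exact permutation test over pools gave p = 0.1 in each line (two-sided, n = 3), the smallest possible. In HCQ-evolved CCL218 a floor of 3 counts per library is 0.0555 CPM on average. With that floor the level was at least 17.2-fold lower than in control pools. This holds for independent counts, and the bound is smaller if both reads of a pair were counted. In HCQ-evolved OVCAR3 the summed 2 counts against 160 gave a level 108-fold lower (95% interval 29.5 to 902, counting error only, each count taken as independent). With no filter on low counts ST6GAL1 fell in both lines, with an adjusted p of 0.000323 in OVCAR3 and 0.000177 in CCL218 (edgeR), where 1.43% and 1.93% of all genes were called lower.

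**Figure D3:**
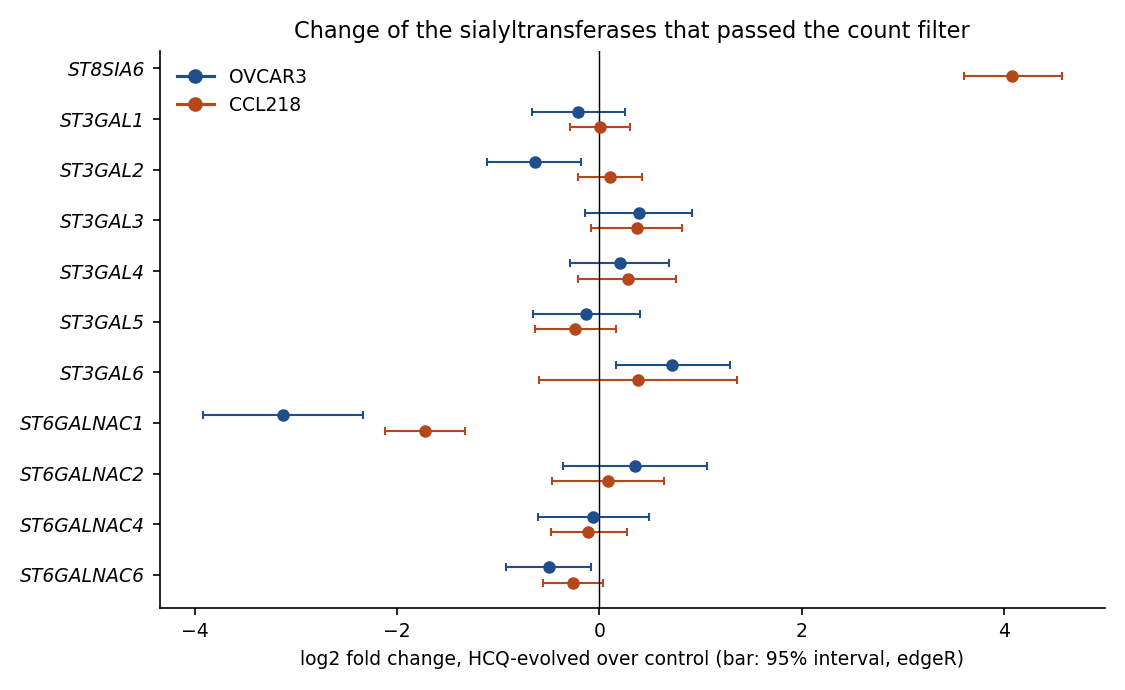
Log2 fold change of HCQ-evolved over control pools (x axis, edgeR) with its 95% interval for each sialyltransferase that passed the count filter (y axis), in OVCAR3 and in CCL218. ST6GALNAC1 lies at -3.13 and -1.72, ST8SIA6 at 4.08 in CCL218, and the others between -0.64 and 0.72.

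The ST3GAL genes, which carried most of the family's RNA, were not called in either line. ST3GAL1, which caps core 1 O-glycans, was at 358 (L), 373 (M) and 285 CPM (R) in control and 278, 253 and 336 CPM in HCQ-evolved OVCAR3. Its log2 fold change was -0.21 in OVCAR3 (95% interval -0.67 to 0.25, adjusted p = 0.654, edgeR) and 0.01 in CCL218 (-0.29 to 0.30, adjusted p = 0.982). Pools of ST3GAL1 overlapped in both lines.

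ST3GAL2 acts on O-glycans and gangliosides. Control OVCAR3 pools were at 67.4, 68.6 and 62.3 CPM and HCQ-evolved pools at 49.3, 43.4 and 32.9 CPM. The groups did not overlap, yet the log2 fold change of -0.64 (95% interval -1.11 to -0.18) had an adjusted p of 0.155 (edgeR). It passed with DESeq2 (adjusted p = 0.0338) and in a fit of all 12 libraries (0.0273). In CCL218 it was at 57.5 ± 7.40 and 62.1 ± 2.27 CPM, a log2 fold change of 0.11 (-0.21 to 0.42, adjusted p = 0.640).

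ST3GAL3, ST3GAL4 and ST3GAL5 were also not called. ST3GAL3 and ST3GAL4 cap lactosamine chains, and ST3GAL5 makes GM3, the first ganglioside of the common series. ST3GAL3 was at 3.33 ± 0.385 and 4.31 ± 0.259 CPM in OVCAR3, where pools did not overlap, and at 3.83 ± 0.672 and 4.96 ± 0.406 CPM in CCL218, where they did. Its log2 fold changes were 0.39 (95% interval -0.14 to 0.92, adjusted p = 0.451) and 0.37 (-0.08 to 0.82, adjusted p = 0.274).

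ST3GAL4 had log2 fold changes of 0.20 (-0.29 to 0.69, adjusted p = 0.685) and 0.28 (-0.21 to 0.76, adjusted p = 0.433). Its control pools were wide apart, from 109 to 183 CPM in OVCAR3 and from 82.3 to 137 CPM in CCL218, and in CCL218 the left pool was the high one. Without that pool, ST3GAL4 (0.52, adjusted p = 0.0075) and ST3GAL3 (0.51, adjusted p = 0.0497) passed in CCL218. That fit called 3124 of 12241 genes, against 791 with all pools. ST3GAL5 was at 15.5 ± 3.22 and 14.1 ± 1.94 CPM in OVCAR3 and at 7.80 ± 0.391 and 6.64 ± 1.12 CPM in CCL218, with log2 fold changes of -0.13 (adjusted p = 0.833) and -0.24 (adjusted p = 0.409). Every OVCAR3 pool of ST3GAL5 lay above every CCL218 pool.

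ST6GALNAC4 adds the second sialic acid to sialylated core 1 O-glycans. It was at 35.1 ± 6.17 and 33.5 ± 7.41 CPM in OVCAR3 and at 27.3 ± 4.44 and 25.4 ± 2.46 CPM in CCL218. The log2 fold changes were -0.06 (95% interval -0.61 to 0.49, adjusted p = 0.935) and -0.11 (-0.48 to 0.27, adjusted p = 0.698), and its pools overlapped in both lines. ST8SIA4, a polysialyltransferase of neural cell adhesion molecule, had 0 counts in 10 of the 12 libraries and 4 (L) and 2 counts (R) in HCQ-evolved CCL218. A count of 0 allows up to 3 counts per library if counts are independent, and no change could be read at this depth.

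Among the members tested, pools did not overlap for 3 of 7 in OVCAR3, against 25.7% of all genes tested, and for 1 of 7 in CCL218, against 36.0%.

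**Figure D4:**
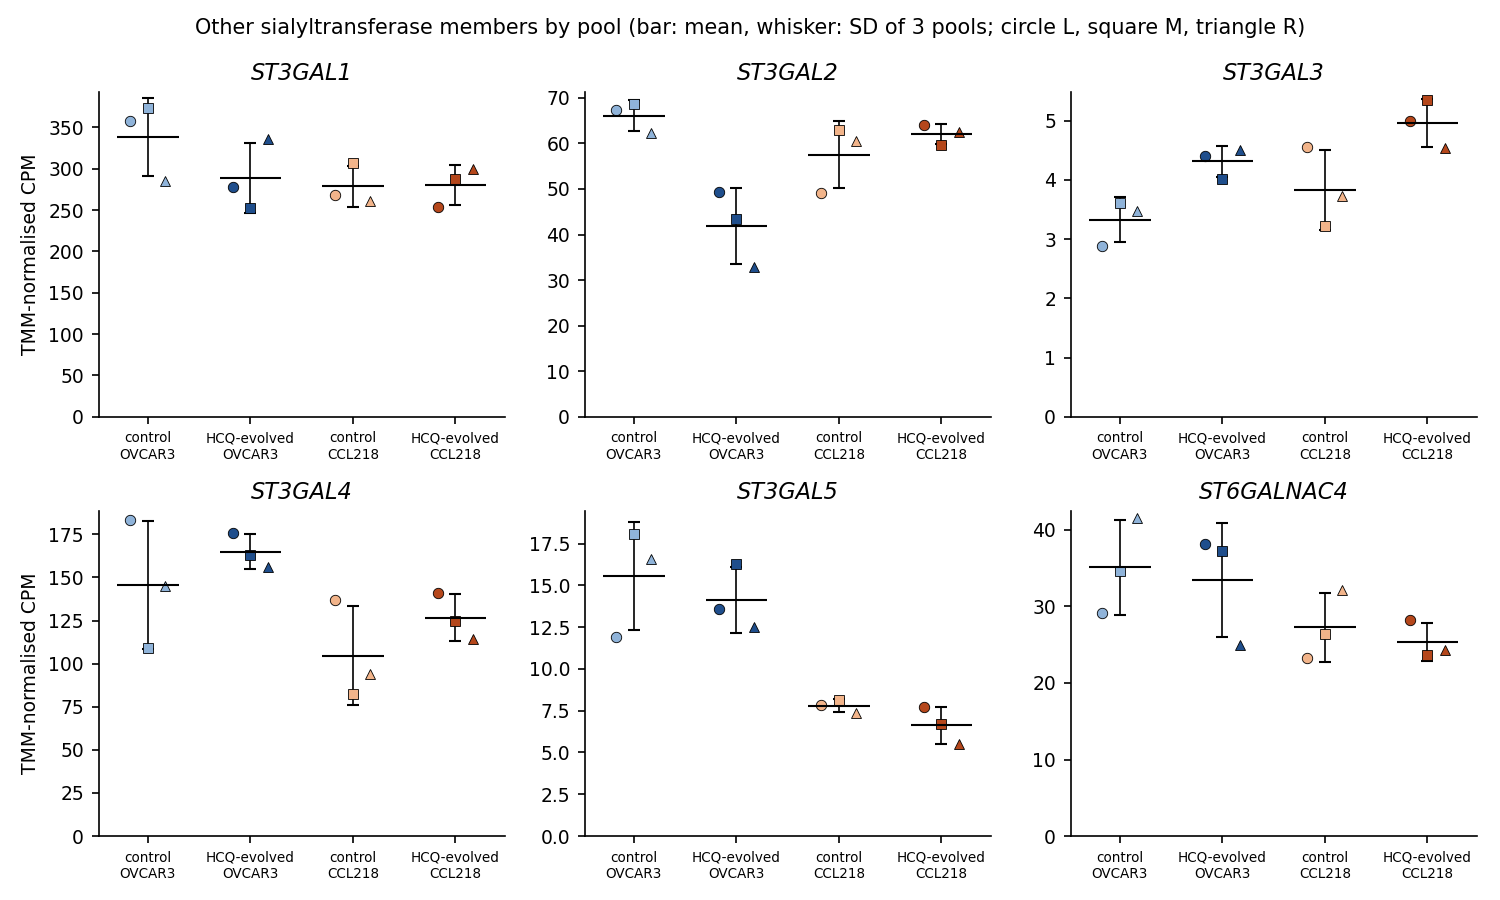
TMM-normalised CPM (y axes, linear, from 0) of ST3GAL1, ST3GAL2, ST3GAL3, ST3GAL4, ST3GAL5 and ST6GALNAC4 in the 4 groups, with a point for each pool, a bar for the mean and whiskers for the SD of 3 pools. Groups of a line overlap in all panels except those of ST3GAL2 and ST3GAL3 in OVCAR3.

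The difference of the changes between lines was tested in an interaction. Of 8 members tested besides ST8SIA6, edgeR called 0, against 0.872% of 12613 genes. Unadjusted p was under 0.05 for 2, ST6GALNAC1 and ST3GAL2, and DESeq2 called these 2, against 463 of 12613 genes. The fall of ST6GALNAC1 was smaller in CCL218 by 1.42 on the log2 scale (standard error 0.35, adjusted p = 0.0979; DESeq2 0.00356). ST3GAL2 was relatively higher in CCL218 by 0.77 (standard error 0.23, adjusted p = 0.195; DESeq2 0.0415). For ST6GAL1, with no counts in HCQ-evolved CCL218, the adjusted p was 0.864.

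Levels of different genes were compared per kb of merged exons (GENCODE 44). On that scale ST3GAL1 led with 31.7 to 38.6 CPM per kb in the 4 groups, followed by ST3GAL4 with 17.5 to 27.7 and ST6GALNAC4 with 9.64 to 13.3. ST3GAL1 and ST3GAL4 overlapped only in HCQ-evolved OVCAR3. With the length of the longest transcript in place of merged exons, ST3GAL4 came first in all 4 groups, with 36.6 to 48.1% of the summed level, so the order of these 2 depends on the length used. ST6GALNAC6 and ST3GAL2 were next, and their pools overlapped in all groups but HCQ-evolved CCL218.

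ST6GALNAC1 was at 3.47 CPM per kb in control CCL218, the sixth rank, and at 1.06 in HCQ-evolved CCL218. ST8SIA6 was at 0.0704 CPM per kb in control and 1.20 in HCQ-evolved CCL218. In the HCQ-evolved pools the 2 genes overlapped. ST8SIA6 thus reached 1.54 ± 0.169% of the summed level of the 20 sialyltransferases in HCQ-evolved CCL218 (0.881% with the longest transcript), and the ST8SIA genes together made up 1.55 ± 0.162%. ST6GALNAC1 had 4.55 ± 0.386% of that sum in control and 1.35 ± 0.204% in HCQ-evolved CCL218.

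ST3GAL genes together made up 75.3 ± 4.52% in control and 77.9 ± 3.09% in HCQ-evolved OVCAR3, and 73.1 ± 3.16% and 77.5 ± 1.41% in CCL218. The summed level of the 20 genes was 94.4 ± 4.44 and 85.2 ± 3.22 CPM per kb in OVCAR3 and 76.5 ± 1.53 and 77.9 ± 1.06 CPM per kb in CCL218. In bulk RNA, a change in the share of cells that express a gene and a change in RNA per cell cannot be told apart.

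**Figure D5:**
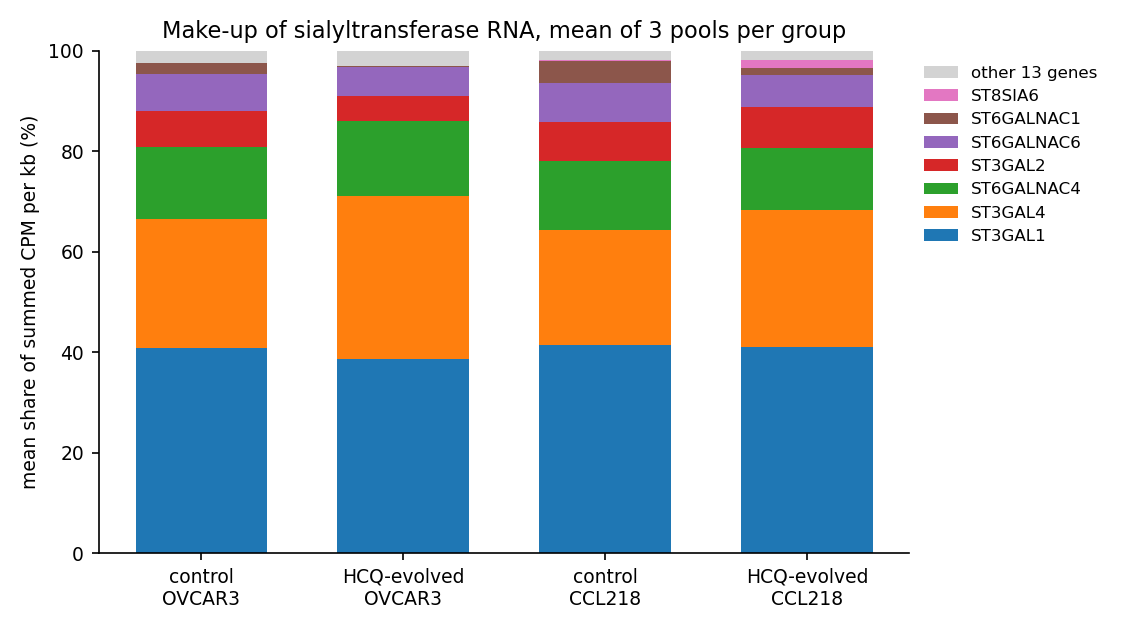
Mean share (y axis, percent, n = 3 pools) of the summed CPM per kb of 20 sialyltransferases in each of the 4 groups (x axis), stacked by gene. ST3GAL1 and ST3GAL4 fill most of every bar, and ST8SIA6 appears only as a thin band of 1.54% in HCQ-evolved CCL218.

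Of the other 10 sialyltransferases, 3 passed the filter in each line and edgeR called 0, against 1.86% of all genes in OVCAR3 and 6.46% in CCL218. Unadjusted p was under 0.05 for 2 in OVCAR3 and 0 in CCL218. DESeq2 called 0 in both, against 1105 of 12204 and 2172 of 12241 genes. ST3GAL6, of the sialyl Lewis pathway, was at 1.60 ± 0.185 and 2.61 ± 0.120 CPM in OVCAR3 (log2 fold change 0.72, adjusted p = 0.190). In CCL218 it had 0.38 (adjusted p = 0.587). Without the left control pool it had 0.99 there (adjusted p = 0.0301), in the fit that called 3124 of all genes. The control pools left in that fit held 21 (M) and 26 counts (R), under the 1 CPM of the filter. ST6GALNAC6, which acts on gangliosides and Lewis antigens, was at 36.5 ± 3.75 and 25.5 ± 1.86 CPM in OVCAR3 (-0.50, adjusted p = 0.225; -0.52 and 0.0342 in the fit of all 12 libraries) and had -0.26 in CCL218 (adjusted p = 0.255). ST6GALNAC2 had 0.35 and 0.09 (adjusted p = 0.623 and 0.836). ST6GAL2, ST6GALNAC3, ST6GALNAC5, ST8SIA1, ST8SIA2, ST8SIA3 and ST8SIA5 held 0 to 6 counts in every library. ST8SIA6 was therefore the ST8SIA gene with more than 6 counts in a library.

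Genes that make and supply sialic acid were not called. For this and the lists below, edgeR called 1.86% of all genes tested in OVCAR3 and 6.46% in CCL218. With the replicate block the shares were 0.664% and 14.2%. DESeq2 called 1105 of 12204 genes in OVCAR3 and 2172 of 12241 in CCL218. Counts at an unadjusted p under 0.05 have no such share beside them and are not read as a result about a list. Of 9 such genes 7 were tested in each line, 0 passed with edgeR, with DESeq2 or at an unadjusted p under 0.05, and the medians of log2 fold change were -0.18 in OVCAR3 and -0.10 in CCL218. SLC35A1, which carries CMP-sialic acid into the Golgi, had -0.51 and -0.35 (adjusted p = 0.333 and 0.302), and NPL, a lyase that breaks sialic acid down, had -0.87 and -0.26 (adjusted p = 0.312 and 0.513). Of 6 sialidase and esterase genes 3 were tested. SIAE, which removes acetyl groups from sialic acid, rose in CCL218 from 34.3 ± 4.43 to 56.1 ± 2.27 CPM (a rise of 0.71 ± 0.14 on the log2 scale, estimate and standard error, adjusted p = 0.0301, edgeR), and had 0.21 in OVCAR3 (adjusted p = 0.603). When 1 pool was left out, its call held only without the left control pool (adjusted p up to 0.17 without another). In OVCAR3 edgeR called 0, 1 had an unadjusted p under 0.05 and DESeq2 called 0. CTSA, the lysosomal protective protein of sialidase, had -0.39 and -0.33 (adjusted p = 0.305 and 0.290).

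Acceptor synthesis was read for O-glycans, glycolipids and N-glycans. Of 19 O-glycan genes, 13 were tested in OVCAR3, where edgeR called 0, 4 had an unadjusted p under 0.05 and DESeq2 called 2. In CCL218, 14 were tested and 1 was called, against 6.46% of all genes. C1GALT1, which makes core 1, rose in CCL218 from 47.8 ± 2.01 to 70.5 ± 3.70 CPM (0.56, adjusted p = 0.0345) and had 0.50 in OVCAR3 (adjusted p = 0.174). Its call also held only without the left control pool (adjusted p up to 0.209 without another), and it was lost after removal of a length and GC trend (0.33, adjusted p = 0.149). GALNT3, which starts O-glycans, was at 103 ± 24.0 and 179 ± 10.8 CPM in CCL218 (0.80, adjusted p = 0.0522). With the replicate block 3 O-glycan genes passed in CCL218, C1GALT1, GALNT3 (0.82, adjusted p = 0.00991) and GALNT6 (0.51, adjusted p = 0.0484, named after its value was seen).

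Of 7 ganglioside acceptor genes 6 were tested and edgeR called 0 in either line. Unadjusted p was under 0.05 for 1 in OVCAR3 and 2 in CCL218, and DESeq2 called 0 and 1. UGCG, which makes glucosylceramide, had -0.01 in OVCAR3 and 0.51 in CCL218 (adjusted p = 0.993 and 0.063). B4GALT6, a lactosylceramide synthase, had 0.67 and 0.40 (adjusted p = 0.218 and 0.214). With the replicate block UGCG (0.51, adjusted p = 0.0376) and A4GALT (0.54, adjusted p = 0.0499, named after its value was seen) passed in CCL218.

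Of 14 N-glycan branching genes tested, 1 (MGAT4A) was called higher in OVCAR3 and 2 (MGAT4A and MGAT3) in CCL218, with 0 lower. Over all genes, 0.647% were called higher in OVCAR3 and 3.82% in CCL218. With the replicate block 3 passed in CCL218, where MAN2A1, a mannosidase of N-glycan trimming that was named after its value was seen, was added (0.79, adjusted p = 0.0374; 0.269 without the block). MGAT4A, which opens a branch of complex N-glycans, was at 1.39 ± 0.556 and 8.35 ± 2.04 CPM in OVCAR3 (2.59, standard error 0.37, adjusted p = 0.023) and at 4.84 ± 1.58 and 15.1 ± 1.84 CPM in CCL218 (1.64, standard error 0.26, adjusted p = 0.0168). MGAT3, which adds the bisecting GlcNAc, rose in CCL218 from 8.72 ± 1.75 to 31.4 ± 4.81 CPM (1.84, adjusted p = 0.00409) and had 0.96 in OVCAR3 (adjusted p = 0.211). The calls of MGAT4A depended on single pools: in OVCAR3 its call held only without the right HCQ-evolved pool (adjusted p up to 0.112 without another), and in CCL218 only without the left or middle control pool (up to 0.095). The call of MGAT3 held without any 1 pool. The medians over the 14 genes were 0.27 and 0.24.

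Of 10 fucosyltransferases listed with the Lewis enzymes 7 were tested, and not all of the 10 make Lewis antigens. In OVCAR3 edgeR called 0, 3 had an unadjusted p under 0.05 and DESeq2 called 2. In CCL218 edgeR called 2 higher, against 3.82% of all genes. FUT3, the Lewis enzyme, rose in CCL218 from 7.31 ± 0.150 to 16.0 ± 0.749 CPM (1.13, adjusted p = 0.00475) and had 0.70 in OVCAR3 (adjusted p = 0.326). FUT11, named after its value was seen, had 1.52 in CCL218 (adjusted p = 0.032; up to 0.147 without the right control pool or any HCQ-evolved pool). FUT7, of sialyl Lewis x synthesis, was at 1.67 ± 0.251 and 3.86 ± 0.283 CPM in OVCAR3 (1.23, adjusted p = 0.0525). In CCL218 it was at 0.407 ± 0.500 and 1.71 ± 0.439 CPM (2.10, adjusted p = 0.137, and 0.02 with the replicate block). It passed the filter in CCL218 through its HCQ-evolved pools only, since its control pools held 5 to 40 counts. Its test there thus rests on the group where it is high.

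Of 9 carriers of sialic acid 7 were tested in CCL218, 2 were called higher, 3 lower and 2 were not called. Over all genes, 3.82% were called higher and 2.64% lower in CCL218. The mucins MUC13 (67.4 ± 2.16 to 175 ± 20.4 CPM, 1.37, adjusted p = 0.00278) and MUC1 (11 ± 1.66 to 22.4 ± 2.04 CPM, 1.03, adjusted p = 0.0132) rose. CD44 (-0.73, adjusted p = 0.0299), CD55 (-0.62, adjusted p = 0.0475) and CD24 (-0.49, adjusted p = 0.049) fell, and these 3 were named after their values were seen. The calls of CD44, CD55 and CD24 held only without the left control pool (adjusted p up to 0.242 without another), and that of MUC1 was lost without the right control pool or any HCQ-evolved pool (up to 0.074). In OVCAR3, 6 were tested and edgeR called 0, with 1 at an unadjusted p under 0.05 and 0 called by DESeq2. There, MUC13 had -0.29 (adjusted p = 0.792) and MUC1 had 0.46 (adjusted p = 0.365).

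Colorectal markers were mixed in CCL218, where edgeR called 3.82% of all genes higher. Of 6 tested, 3 rose in CCL218, CDH17, GPA33 and CDX2 (an intestinal transcription factor, named after its value was seen), and ovarian markers had 0 calls of 5 in each line, with 2 in OVCAR3 and 1 in CCL218 at an unadjusted p under 0.05 and 1 and 0 called by DESeq2. With the replicate block 1 ovarian marker, MSLN, passed in CCL218 (0.81, adjusted p = 0.0167; 0.181 without the block). The other 3 colorectal markers had lower means in HCQ-evolved than in control CCL218 and were not called, with LGALS4 at 786 ± 51.8 and 1050 ± 280 CPM, VIL1 at 185 ± 21.6 and 188 ± 12.9 CPM and TFF3 at 22.7 ± 8.48 and 38.2 ± 19.2 CPM. With the replicate block TFF3 passed as lower (-0.73, adjusted p = 0.0417; 0.291 without the block). MSLN, LGALS4, VIL1 and TFF3 were named after their values were seen. CDH17, an intestinal cadherin, was at 3.85 ± 1.26 and 52.6 ± 6.67 CPM in CCL218 (3.77, adjusted p = 0.0012), and GPA33 had 2.86 (adjusted p = 0.000608). In OVCAR3 edgeR called 0 of 6 colorectal markers, with 1 at an unadjusted p under 0.05 and 1 called by DESeq2. CDH17 had 0.07 there (adjusted p = 0.952) and GPA33 0.76 (adjusted p = 0.496). The folate receptor gene FOLR1 had -1.12 in OVCAR3 and -0.38 in CCL218 (adjusted p = 0.0799 and 0.42), and the kallikrein gene KLK6 had 0.69 and 0.15 (adjusted p = 0.191 and 0.707). The summed colorectal markers spanned 1120 to 1650 CPM in control and 1110 to 1170 CPM in HCQ-evolved CCL218, and their part in the level of ST8SIA6 was not tested.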

How the data were processed

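The deposited values are raw read counts, 1 row per gene symbol. For these the authors used STAR (hg38), RmDup for duplicates and featureCounts. The counting settings for strand and read pairs are not given in the sources used here, and 78.9% of entries of 1 to 4 counts were even. All 12 libraries were used, grouped by their labels, and 0 columns were left without a sample.

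Each line was fitted alone with TMM scaling and the quasi-likelihood test of edgeR 4.0.16 in R 4.3.3, on genes that reached 1 CPM in 3 libraries or more, with Benjamini-Hochberg adjustment over all genes and a threshold of 0.05. The lines were compared by an interaction over 12 libraries. CPM in the text were scaled over all libraries together. Intervals of fold changes are 95% and come from the same fits. Alternatives were DESeq2 1.42.0, its size factors in edgeR, no filter, 1 fit of all libraries, a replicate block, removal of a length and GC trend, and leaving out each pool. In fits that left out a pool, the genes of the full fit were kept. The fits were tested on simulated data.

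Deviations of pools with the same plate position (L, M, R) correlated at 0.506, 0.233 and 0.195 in CCL218, where the positions were taken to pair the pools, and at 0.401, -0.665 and -0.478 in OVCAR3, where they were not. These correlations come from the data under test. In CCL218 the middle control pool did not correlate best with the HCQ-evolved pool of its own position, so the pairing there is uncertain. The values in the text come from fits without the block in both lines, and blocked values for CCL218 stand beside results whose call they changed.

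GENCODE 44 on hg38, the build of the authors, gave coordinates for 25654 of 28278 symbols, and promoters came from RefSeq. The members and gene lists were chosen with earlier results of these data known. Named genes were all 10 members, the other 10 sialyltransferases, ST8SIA6-AS1, from each further list the 2 tested genes with the smallest unadjusted p in either line, and the 5 genes of highest Pearson correlation with ST8SIA6 in log2 CPM (prior count 2). The lists covered sialic acid supply, sialidases and esterase, O-glycan, ganglioside and N-glycan acceptors, fucosyltransferases listed with the Lewis enzymes, sialic acid carriers, chromosome 10 neighbours, and ovarian and colorectal markers. Count intervals and the floor of 3 counts cover counting error only and take each count as independent. If both reads of a pair were counted, the intervals would be wider and the floor higher. Whether they were was not tested.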

Additional observations from a re-analysis of the deposited data

Results flagged for a closer look

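CDH17, a colorectal marker, changed differently in the 2 lines. Its log2 fold change was higher in CCL218 than in OVCAR3 by 3.71 (standard error 0.50, adjusted p = 0.00555, interaction in edgeR). It was at 3.34 ± 0.540 and 3.50 ± 1.55 CPM in control and HCQ-evolved OVCAR3 and at 3.85 ± 1.26 and 52.6 ± 6.67 CPM in CCL218 (SD, n = 3). Groups of 3 pools were not tested for outlying pools.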

How the results depend on the processing

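ST6GALNAC1 kept its direction in both lines under every alternative run, and its call in CCL218. The count of members called in OVCAR3 was 1 and rose to 2 with DESeq2 (ST3GAL2 added), 2 with no filter on low counts (ST6GAL1 added) and 3 in a fit of all 12 libraries (both added), and it ranged from 0 to 1 when each pool was left out. Without the left or right control pool, edgeR called 6 or 4 of all genes in OVCAR3. In CCL218 the count of 1 rose to 2 with no filter and 2 in the fit of all 12 libraries (ST6GAL1 in both), and ranged from 1 to 3 when each pool was left out, with the 3 reached without the left control pool, where 3124 of all genes were called. The count for the difference between lines, 0, was 2 with DESeq2 and 1 after removal of the length and GC trend (ST6GALNAC1, adjusted p = 0.0496), and 0 in each fit that left out a pool. The causes were not tested.

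With the replicate block the members called were 1, 1 and 0, the same counts, and ST6GALNAC1 had an adjusted p of 0.0231 in OVCAR3 and 0.000659 in CCL218. All genes called went from 227 to 81 in OVCAR3, from 791 to 1744 in CCL218 and from 110 to 35 in the interaction. By DESeq2 they were 1105, 2172 and 463, with no filter 549, 1005 and 122, after removal of the length and GC trend 807, 1985 and 327 (314, 2008 and 99 with the block), and in the fit of all 12 libraries 1165 and 654 for the lines. With 1 pool left out they ranged from 4 to 576, 144 to 3124 and 40 to 213. In OVCAR3, where the positions share only a label, 1 of 3 control pools correlated best with the HCQ-evolved pool of its own position.

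ST8SIA6 had a log2 fold change of 3.91 in CCL218 after removal of the length and GC trend, 3.92 with the block added, and 3.99 to 4.15 with each pool left out. Its difference between lines ranged from 1.54 (without the left control pool of OVCAR3) to 2.78. With no filter, ST6GAL1 kept an adjusted p of at most 0.0187 in OVCAR3 and 0.000421 in CCL218 over fits that left out each pool.

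Small values changed sign. Removal of the length and GC trend gave ST6GALNAC4 0.06 in OVCAR3 and 0.03 in CCL218 (0.11 in both with the block) and ST3GAL1 -0.07 in CCL218 (also with the block). Leaving out each pool gave ranges of -0.19 to 0.11 (ST6GALNAC4, OVCAR3), -0.21 to 0.03 (ST6GALNAC4, CCL218), -0.05 to 0.09 (ST3GAL1, CCL218), 0.00 to 0.19 (ST3GAL2, CCL218), -0.30 to 0.00 (ST3GAL5, OVCAR3) and -0.06 to 0.23 (ST6GALNAC2, CCL218). For the difference between lines they were -0.11 to 0.14 (ST3GAL3; 0.00 with the block), -0.10 to 0.34 (ST3GAL4), -0.22 to 0.06 (ST3GAL5), -2.57 to 0.44 (ST6GAL1) and -0.21 to 0.10 (ST6GALNAC4).

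Of the other genes called, MGAT3, FUT3, MUC13, CDX2, CDH17 and GPA33 kept their calls in CCL218 without any 1 pool, with adjusted p up to 0.0386. SIAE, C1GALT1, CD24, CD44 and CD55 kept theirs only without the left control pool, with adjusted p up to 0.242 without another pool. MGAT4A, FUT11 and MUC1 lost theirs in CCL218 without the right control pool or any HCQ-evolved pool (up to 0.147), and MGAT4A in OVCAR3 lost it without any pool but the right HCQ-evolved one (up to 0.112). In the fit of all 12 libraries FUT11, MUC13, CD24, CD44 and CDX2 lost their calls in CCL218 (adjusted p = 0.0739, 0.056, 0.525, 0.0632 and 0.161), and CD24 and CD55 did with no filter (0.117 and 0.0588). With the longest transcript as length, chosen after seeing the data, ST3GAL1 had 26.3 to 30.5% of the summed level and ST3GAL4 36.6 to 48.1%. Depth limited ST8SIA4, ST8SIA6 in OVCAR3 and ST6GAL1, whose levels were within a few counts of 0 in at least 1 group.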
